A study of Mus musculus with 16 samples.

Results

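Interferon-stimulated genes were followed in the L3-6 dorsal root ganglia (DRGs) of mice with spared nerve injury (SNI) or sham surgery that received desipramine (DMI) or saline. The 46 members were chosen as a list of gene symbols and found through their Ensembl identifiers among the 52636 genes of the count tables. All 46 were matched, and all 46 were among the 21371 genes that passed the filter on low counts and were tested. The members were put into 6 role groups, with 4 signalling and transcription factors, 4 nucleic acid sensors, 13 antiviral effectors, 7 genes of the ISG15 and ADP-ribosylation system, 11 interferon-inducible GTPases and 7 other genes.

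Each of the 16 libraries came from 1 male C57Bl6/J mouse, aged 3 to 4 months per the methods of the study, with 4 mice per group. Sham-Saline and SNI-Saline had saline, and Sham-DMI and SNI-DMI had DMI. The SNI groups had a tibial spared nerve injury and the Sham groups an operation without it, so no group was without surgery. DMI, a tricyclic antidepressant that blocks the uptake of noradrenaline, was given over 3 weeks by 2 daily injections of 15 mg/kg, and the other mice had saline alone. The results and the labels place the first injection 4 weeks after surgery, and the methods 4 months after it. Each value is a mean over all cells of the ganglia, which hold neurons, glia, vessel and immune cells.

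Interferons are secreted proteins through which cells warn each other of viruses and of misplaced nucleic acid. Type I interferons bind the receptor of Ifnar1 and Ifnar2, and interferon gamma, mostly made by T and NK cells, binds the receptor of Ifngr1 and Ifngr2. Receptor-bound kinases then activate transcription factors. The complex that contains Stat2 and Irf9 binds the interferon-stimulated response element (ISRE), and interferon gamma acts mainly through the gamma-activated site (GAS) and through Irf1. The induced genes block viral entry, translation and assembly, and in nervous tissue they are expressed by neurons, glia and resident macrophages.

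Both elements were searched for in the promoter sequences of RefSeq (build GRCm38.p6), which hold the 250 bases before and the 50 bases from each transcript start. Of the 46 members 33 were matched by symbol. The ISRE was searched as GAAA, any 2 bases and GAAA again, and the GAS as TTC, any 3 bases and GAA, both on both strands, where the GAS letters read the same on either strand. At least 1 ISRE match was found in 19 of the 33 members (57.6%) and in 1079 of all 27025 genes (3.99%). A GAS match was found in 11 of 33 members (33.3%) and in 9.55% of all genes. All 7 matched GTPases held an ISRE match, as did 7 of 11 antiviral effectors, 2 of 2 sensors, 2 of 4 genes of the ISG15 and ADP-ribosylation system and 1 of 4 transcription factors, while none was found in the 5 matched genes of the other group. The other 13 members are Dhx58, Zbp1, Oas2, Mx1, Usp18, Parp9, Parp14, Gbp4, Gbp6, Gbp9, Iigp1, Ifi27 and Rtp4. A match to these letters is a description of the sequence and no measure of binding.

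**Figure D1:**
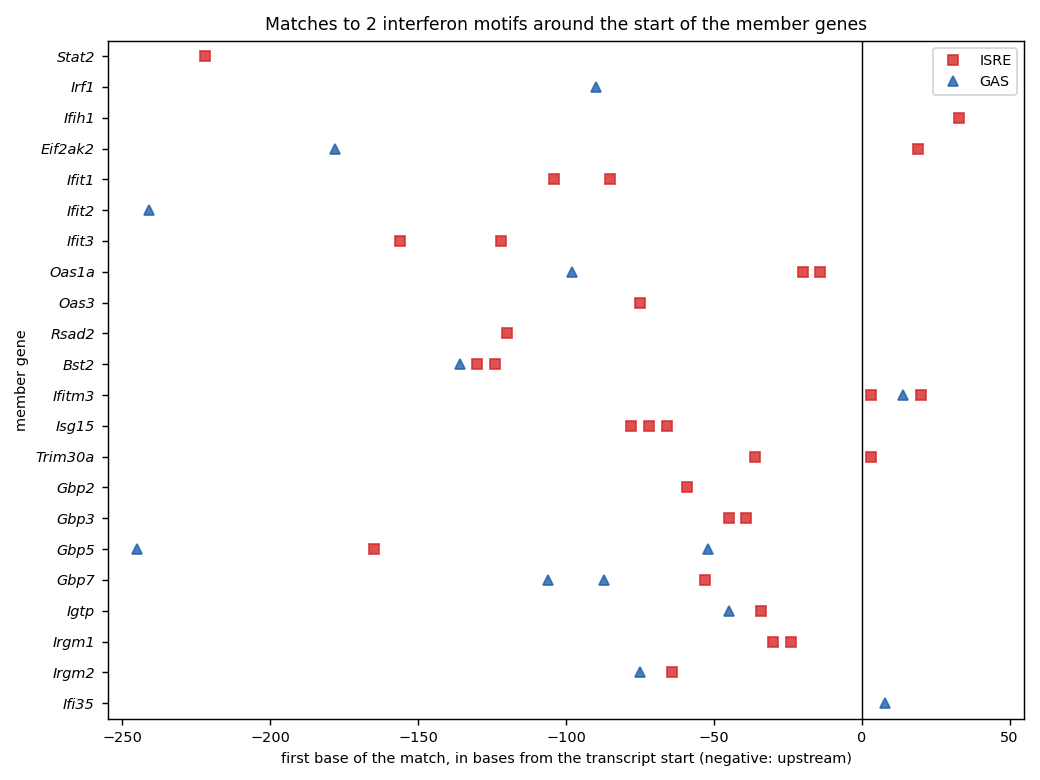
Distance of each match to the ISRE letters (red squares) and the GAS letters (blue triangles) from the transcript start, in bases, for the member genes with at least 1 match. Of 29 ISRE matches 21 began within 150 bases upstream of the start, and of 13 GAS matches 8 did.

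The 150 bases directly upstream of the start are shown for 6 members that are described below, to let the arrangement of both elements be compared between antiviral genes, GTPases and the transcription factor Irf1. They lie at chr4:156200819-156200968 (minus strand, Isg15), chr8:71537473-71537622 (minus strand, Bst2), chr19:34640739-34640888 (plus strand, Ifit1), chr3:142620513-142620662 (plus strand, Gbp2), chr11:58199406-58199555 (plus strand, Igtp) and chr11:53769864-53770013 (plus strand, Irf1). They are written 5′ to 3′ on the strand of the gene, and capitals mark every base of an ISRE or GAS match.
Isg15: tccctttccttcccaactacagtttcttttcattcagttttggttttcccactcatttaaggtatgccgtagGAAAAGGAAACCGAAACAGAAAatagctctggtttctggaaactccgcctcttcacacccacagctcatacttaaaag
Bst2: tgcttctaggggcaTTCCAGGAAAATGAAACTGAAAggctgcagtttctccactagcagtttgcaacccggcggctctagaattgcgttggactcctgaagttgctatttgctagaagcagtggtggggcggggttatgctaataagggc
Ifit1: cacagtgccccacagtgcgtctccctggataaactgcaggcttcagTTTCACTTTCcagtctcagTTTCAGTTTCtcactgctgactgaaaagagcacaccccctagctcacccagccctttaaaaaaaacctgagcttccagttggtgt
Gbp2: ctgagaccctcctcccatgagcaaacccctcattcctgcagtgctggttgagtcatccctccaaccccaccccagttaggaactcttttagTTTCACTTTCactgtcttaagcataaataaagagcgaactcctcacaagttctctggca
Igtp: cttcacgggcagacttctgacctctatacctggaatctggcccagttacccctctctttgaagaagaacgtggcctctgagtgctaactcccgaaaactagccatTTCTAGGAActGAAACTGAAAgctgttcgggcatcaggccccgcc
Irf1: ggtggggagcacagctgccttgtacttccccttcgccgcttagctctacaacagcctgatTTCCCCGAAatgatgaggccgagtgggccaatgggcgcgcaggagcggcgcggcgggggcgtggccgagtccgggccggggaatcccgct
Isg15 carried a run of overlapping ISRE matches, and Ifit1 and Gbp2 carried theirs on the other strand. In Bst2 the GAS match ran into the ISRE matches, in Igtp both elements lay close to each other, and Irf1 held a GAS match without an ISRE.

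Between 41194238 and 73920332 read pairs were counted on genes per mouse, and the members took 0.0817% to 0.1605% of them. Counting error weighed most on the members with few reads, of which Oas3 had 4 to 60 read pairs per library and Gbp6 14 to 309. Of the labels, 1 gives spinal cord as the tissue and another DRG as the cell type, and the markers were those of a DRG. The 8 sensory neuron markers lay between 95.1 and 1960 CPM (read pairs scaled to a common library size with TMM), whereas no marker of oligodendrocytes or central neurons of the spinal cord exceeded 0.749 CPM. The libraries carry the numbers 17 to 20 for Sham-DMI, 21 to 24 for SNI-DMI, 33 to 36 for SNI-Saline and 37 to 40 for Sham-Saline. Each group is thus 1 block of numbers, and whatever differs between these blocks cannot be told apart from an effect of DMI or of injury in any of the comparisons. Of 7 markers of injured neurons 6 rose in SNI-Saline versus Sham-Saline. Their summed level in the SNI groups was 212 to 378 CPM, against 53.1 to 63.6 CPM in Sham-Saline and 71.9 to 116 CPM in Sham-DMI.

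Levels per exon length differed widely between the members. Averaged over the 16 mice, Ifi27, a small membrane protein of mitochondria, stood highest with 106 CPM per kb, followed by Ifitm3, which hinders the entry of enveloped viruses, with 60 and the secreted glycoprotein Lgals3bp with 30.8. The lowest levels were those of Oas3 (0.0504 CPM per kb), the guanylate-binding protein Gbp6 (0.241) and the cytoplasmic antiviral protein Ifi44 (0.360). Lgals3bp lay at 89.8, 74.1, 83.7 and 79.1 CPM in Sham-Saline, at 89.5, 103, 85 and 83.3 CPM in SNI-Saline, at 78.5, 86.3, 90.9 and 80.3 CPM in Sham-DMI, and at 98.3, 80.9, 93.5 and 105 CPM in SNI-DMI, and the groups overlapped in all 4 comparisons. At the lower end, Oas3, which makes the second messenger of RNase L, lay at 0.417, 0.198, 0.28 and 0.317 CPM in Sham-Saline, at 0.272, 0.505, 0.514 and 0.489 CPM in SNI-Saline, at 0.222, 0.343, 0.15 and 0.0631 CPM in Sham-DMI, and at 0.784, 0.123, 0.115 and 0.904 CPM in SNI-DMI. Its groups overlapped in all 4 comparisons as well, and none of its changes had an adjusted p under 0.1. The log2 fold change of SNI-DMI over Sham-DMI was 1.26 (SE 0.586, adjusted p = 0.398 in edgeR).

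Many members lie next to relatives. Gbp2, Gbp3, Gbp5 and Gbp7 share 144 kb of chromosome 3 (chr3:142493978-142638008, GRCm38), Gbp4, Gbp6 and Gbp9 216.1 kb of chromosome 5 (chr5:105077630-105293698), the 3 Oas genes 177.2 kb of the same chromosome (chr5:120730333-120907521), and the 3 Ifit genes 99.3 kb of chromosome 19 (chr19:34550694-34650009). Read pairs without a unique alignment (5.71% to 6.4% of all per library) or that fitted more than 1 gene (3.05% to 3.41%) were counted for no gene. Read pairs shared between such relatives can therefore be missing from the values of each. Exons of Gbp4 and Gbp9, of Igtp and Irgm2, and of Irf9 and Rnf31 overlap on the same strand, and those of Dtx3l and Parp9, of Irf7 and Phrf1 and of Irf1 and Gm17334 on opposite strands. Gbp4 and Gbp9 also overlap Gbp8, and Gbp6 overlaps Gm43302, a gene annotated as protein-coding, on the same strand. With genes not annotated as protein-coding, Gbp7, Herc6, Parp14, Rtp4 and Sp100 overlap on the same strand. Dhx58, Eif2ak2, Usp18, Gbp2 and Ifi35 overlap such genes on the opposite strand. The kit keeps the strand, but whether the counting used it is not given in the sources used here, so the values of these genes are less certain than the others.

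The comparison of SNI-Saline with Sham-Saline asked what nerve injury did in mice injected with saline. Interferon-stimulated genes were mostly higher after injury. Of the 46 members 11 rose (23.9%) at an adjusted p under 0.1 in the quasi-likelihood test of edgeR with Benjamini-Hochberg adjustment over all tested genes, and none fell, where 12% of all tested genes were called in either direction, 5.85% higher and 6.18% lower. The median log2 fold change of the members was 0.402 (all genes -0.001), and 40 of 46 were above 0. By the DEG cut-offs of the study (a nominal p under 0.05 and a log2 change of 0.32 or more in either direction), 16 members were higher (34.8%, all genes 3.64%) and none lower (all genes 3.51%). In 16 members all SNI-Saline mice lay above all Sham-Saline mice, which was so for 7.67% of all genes, and in none did all lie below (all genes 7.74%). The list was chosen with results of these libraries known, so its direction is not independent evidence. In bulk tissue, fewer or more cells of a type and less or more RNA per cell cannot be told apart.

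**Figure D2:**
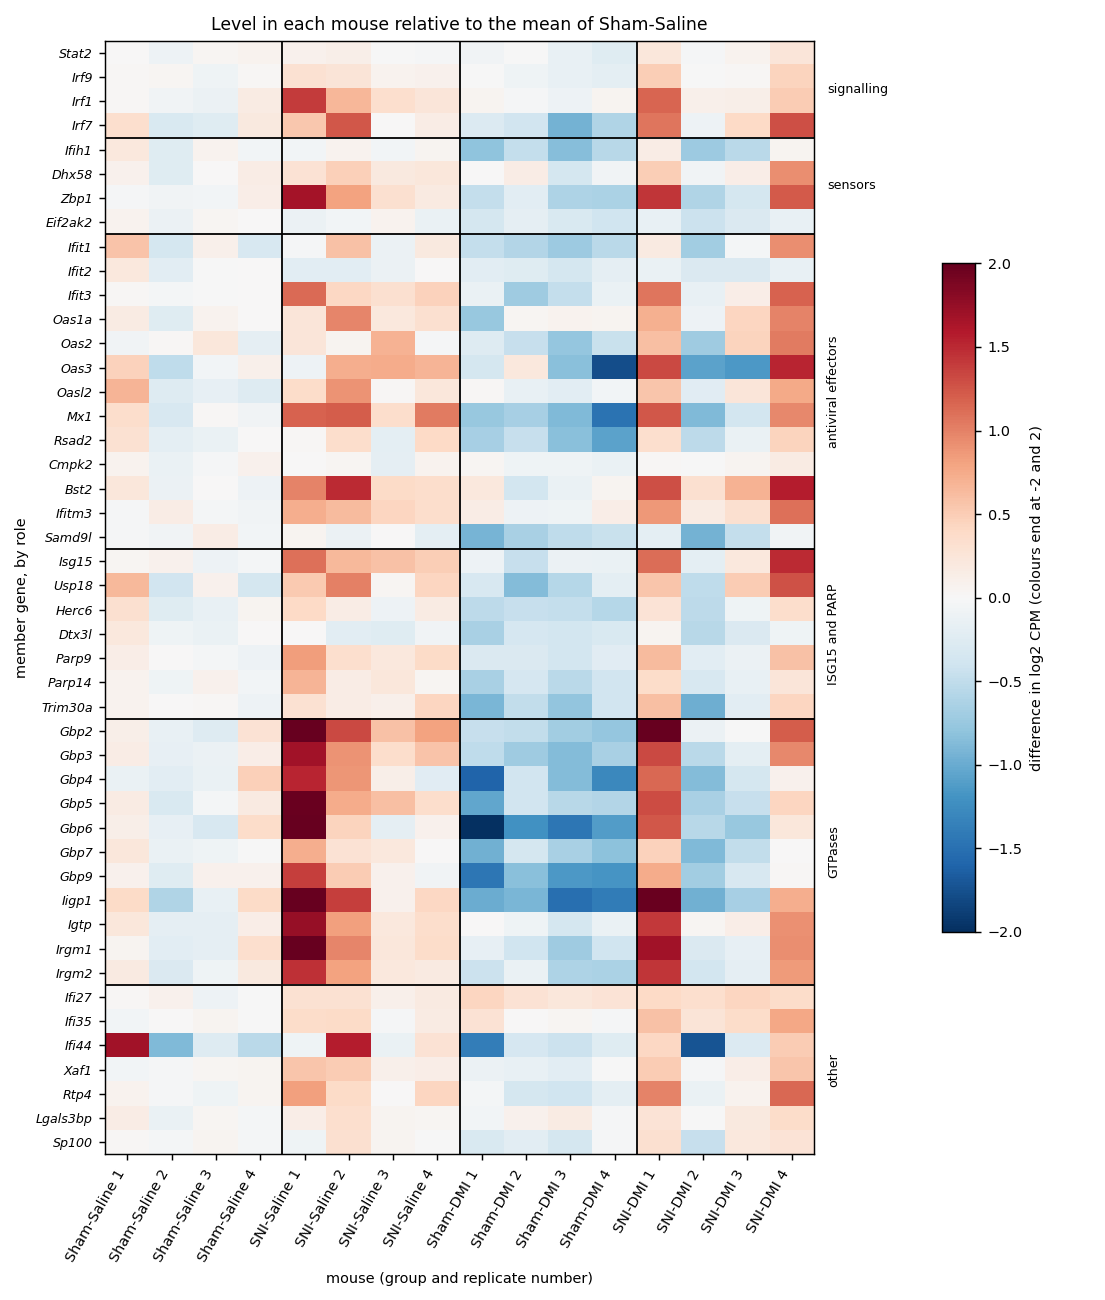
Level of the 46 members (rows, by role) in each of the 16 mice (columns) as the difference in log2 CPM from the mean of the 4 Sham-Saline mice. Red is higher and blue lower, and the median over the members was between -0.48 and -0.34 in the 4 Sham-DMI mice and between 0.10 and 0.53 in the 4 SNI-Saline mice.

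The GTPases had the highest median change of the 6 role groups. These proteins coat and disrupt the vacuoles and membranes of intracellular pathogens. All 11 had a positive change, with a median of 0.912 and a range from 0.33 to 2.0, and 4 of them rose (Gbp2, Gbp3, Gbp5 and Igtp). Gbp2 lay at 17.6, 14.6, 13.6 and 19.8 CPM in Sham-Saline and at 169, 40.7, 24.4 and 28.3 CPM in SNI-Saline. All 4 injured mice stood above the 4 sham mice, and replicate 1 was at 5.42 times the mean of the other 3. Its change was 2.0 (SE 0.555, adjusted p = 0.0448), and it was no longer called without SNI-Saline replicate 1 (0.94, adjusted p = 0.237) or Sham-Saline replicate 3 (1.93, adjusted p = 0.125). Gbp6 was at 1.39, 1.13, 1.01 and 1.66 CPM in Sham-Saline and at 5.6, 1.74, 1.12 and 1.36 CPM in SNI-Saline, so that the groups overlapped, and its change of 0.91 did not pass (SE 0.467, adjusted p = 0.254). The same held for Gbp7, with 19.2, 14.9, 15.4 and 16.3 CPM against 27.2, 20, 19 and 16.4 CPM (0.33, SE 0.214, adjusted p = 0.389).

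Among the antiviral effectors 3 of 13 rose, and the group median was 0.360. Bst2, or tetherin, holds budding virus at the cell surface. It was at 15.3, 12.2, 13.2 and 12.2 CPM in Sham-Saline and at 26.2, 37, 17.1 and 16.9 CPM in SNI-Saline, with no overlap (0.88, SE 0.250, adjusted p = 0.0479). Ifitm3 went from 31.5, 35.5, 31.2 and 30.6 CPM to 53.4, 49.7, 43.5 and 40.9 CPM, again with no overlap (0.54, SE 0.151, adjusted p = 0.0449). Mx1 encodes a GTPase that traps viral ribonucleoprotein, although the allele of C57BL/6 mice lacks coding exons. It was at 2.0, 1.24, 1.59 and 1.48 CPM in Sham-Saline and at 3.57, 3.63, 1.99 and 3.22 CPM in SNI-Saline, where replicate 3 reached down to the highest sham mouse (0.98, SE 0.349, adjusted p = 0.0986). Ifit3, which binds Ifit1 on foreign RNA, was at 14.7, 14.2, 14.5 and 14.6 CPM in Sham-Saline and at 32, 19.4, 18.1 and 20 CPM in SNI-Saline. Its groups did not overlap, but the change did not pass (0.62, SE 0.241, adjusted p = 0.128). The remaining effectors ranged from -0.14 (Ifit2) to 0.57 (Oas3).

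Samd9l and Rsad2 belong to the same role group and had values near 0. Samd9l, which restrains viral translation, was at 20.6, 20.1, 23.2 and 20.2 CPM in Sham-Saline and at 21.7, 19.4, 21.2 and 18.3 CPM in SNI-Saline (-0.061, SE 0.140, adjusted p = 0.840). Rsad2, or viperin, which makes a chain-ending nucleotide, was at 11.6, 8.17, 8.57 and 9.45 CPM against 9.55, 12, 8.13 and 12.3 CPM (0.15, SE 0.189, adjusted p = 0.689). For both genes the mice of the 2 groups were intermixed.

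Of the 4 signalling and transcription factors Irf1 rose. Irf1 is induced by interferon gamma and binds the promoters of many GTPase genes. It was at 20.4, 19.1, 18.4 and 22.4 CPM in Sham-Saline and at 52.7, 31.7, 25.4 and 23.6 CPM in SNI-Saline, without overlap (0.73, SE 0.225, adjusted p = 0.0636). Without SNI-Saline replicate 1 the change was 0.43 (adjusted p = 0.230, with 0.0357 to 0.230 over the 16 mice left out in turn), and leaving out any 1 of 5 mice ended the call. Irf7, which drives the second wave of type I interferon, was at 9.06, 5.77, 6.06 and 8.20 CPM against 10.4, 17, 7.18 and 7.91 CPM, where only replicates 1 and 2 stood above all sham mice (0.55, SE 0.282, adjusted p = 0.258). Irf9 was at 24.8, 25.3, 23.2 and 24.9 CPM against 30.2, 29.2, 25.8 and 26 CPM, a small difference without overlap that did not pass (0.18, SE 0.0982, adjusted p = 0.288). Its partner Stat2 was at 94.7, 87.8, 96.6 and 99.2 CPM against 101, 103, 94 and 92.4 CPM, and was intermixed (0.044, SE 0.0655, adjusted p = 0.742).

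Isg15, the ubiquitin-like modifier, rose from 6.17, 6.38, 5.58 and 5.84 CPM in Sham-Saline to 12.9, 9.45, 8.96 and 8.42 CPM in SNI-Saline (0.73, SE 0.255, adjusted p = 0.0932), without overlap. It was the 1 called gene of the 7 in the ISG15 and ADP-ribosylation system, whose median was 0.292. None of the 4 nucleic acid sensors was called. Zbp1, which senses left-handed nucleic acid, was at 2.71, 2.63, 2.65 and 3.02 CPM against 8.80, 4.82, 3.42 and 3.13 CPM, higher in every injured mouse but with a wide spread (0.87, SE 0.377, adjusted p = 0.173). Ifih1, the MDA5 sensor of long double-stranded RNA, had a change near 0, at 12.5, 9.09, 11.3 and 10.4 CPM against 10.4, 11.2, 10.4 and 11.2 CPM (-0.0024, SE 0.158, adjusted p = 0.995). In the other group Ifi27 rose from 135, 140, 123 and 131 CPM to 163, 163, 142 and 150 CPM, a small change with a small spread (0.22, SE 0.0562, adjusted p = 0.0311), and the remaining called member was Xaf1, a regulator of apoptosis inhibitors (0.34, SE 0.119, adjusted p = 0.0965). Rtp4, which binds viral RNA, was at 7.23, 6.79, 6.50 and 7.20 CPM against 12.3, 9.07, 6.99 and 9.38 CPM (0.44, SE 0.226, adjusted p = 0.251).

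The count of 11 changed with single mice. When a Sham-Saline mouse was left out it was 5 (replicate 1 or 2), 0 (replicate 3) or 2 (replicate 4). It was 1 when SNI-Saline replicate 1 was left out, 2 for replicate 2 of that group and 7 for Sham-DMI replicate 3, which enters only through the shared spread. With the trends on GC content and exon length removed, 1 member was called, Gbp2, while the median was 0.384 and 21 members were past the DEG cut-offs, all higher. Of the 10 calls lost there, 9 had changes of 0.35 (Xaf1) to 1.1 (Gbp5), and the change of Ifi27 was 0.095 (adjusted p = 0.262, with 0.0049 to 0.278 over the 7 other settings). By the DEG cut-offs, 7 members were higher without SNI-Saline replicate 1, and the changes of Gbp5 and Igtp were then 0.58 and 0.49, against 1.06 and 0.91 with it. The median change stayed between 0.309 and 0.529 without any 1 mouse.

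**Figure D3:**
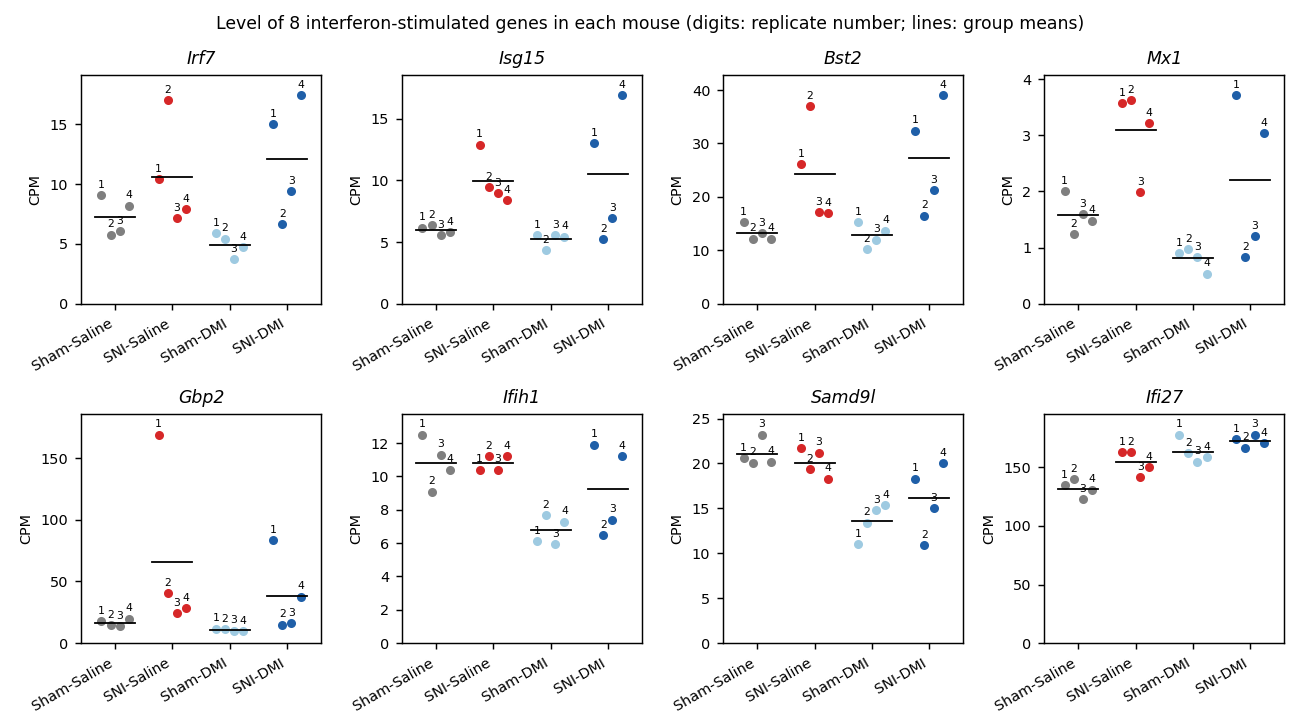
CPM of 8 members in each mouse by group, with the replicate number above each point and the group mean as a line, on linear axes from 0. Gbp2 reached 169 CPM in SNI-Saline replicate 1, and Ifih1 and Samd9l were lower in every Sham-DMI mouse than in every Sham-Saline mouse.

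The injured mice differed more from each other in these genes than the sham mice did, a description with no test. Over the 45 members with a mean of at least 1 CPM, the median coefficient of variation was 22.9% in SNI-Saline and 37.6% in SNI-DMI, against 11.2% in Sham-Saline and 11.7% in Sham-DMI. Over all 15750 genes of that level it was 6.84%, 6.79%, 7.12% and 9.66% in the same order. The mice that stood out did so by role group. SNI-Saline replicate 1 was the highest of all 16 mice in all 11 GTPases, whose median lay 1.75 above the Sham-Saline mean on the log2 scale, against 0.82, 0.21 and 0.35 in the other 3. In the antiviral effectors replicate 2 was furthest up, at 0.58, and replicate 1 was at 0.24. Under DMI replicate 1 was the highest of its group in all 11 GTPases (1.32) and replicate 4 in 11 of 13 antiviral effectors (0.95). SNI-DMI replicate 2 was the lowest of its group in 44 of the 46 members, and its overall median was -0.34, the same as in 2 of the Sham-DMI mice. Sham-Saline replicate 1 was the highest of its group in 9 of 13 antiviral effectors, and Ifi44 was at 6.33 CPM there and at 1.04, 1.64 and 1.34 CPM in the other 3. In SNI-Saline Ifi44 was at 1.85, 5.9, 1.78 and 2.4 CPM, in Sham-DMI at 0.734, 1.55, 1.45 and 1.66 CPM, and in SNI-DMI at 2.61, 0.567, 1.62 and 2.8 CPM, so that the groups overlapped in all 4 comparisons and none of the changes had an adjusted p under 0.1.

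**Figure D4:**
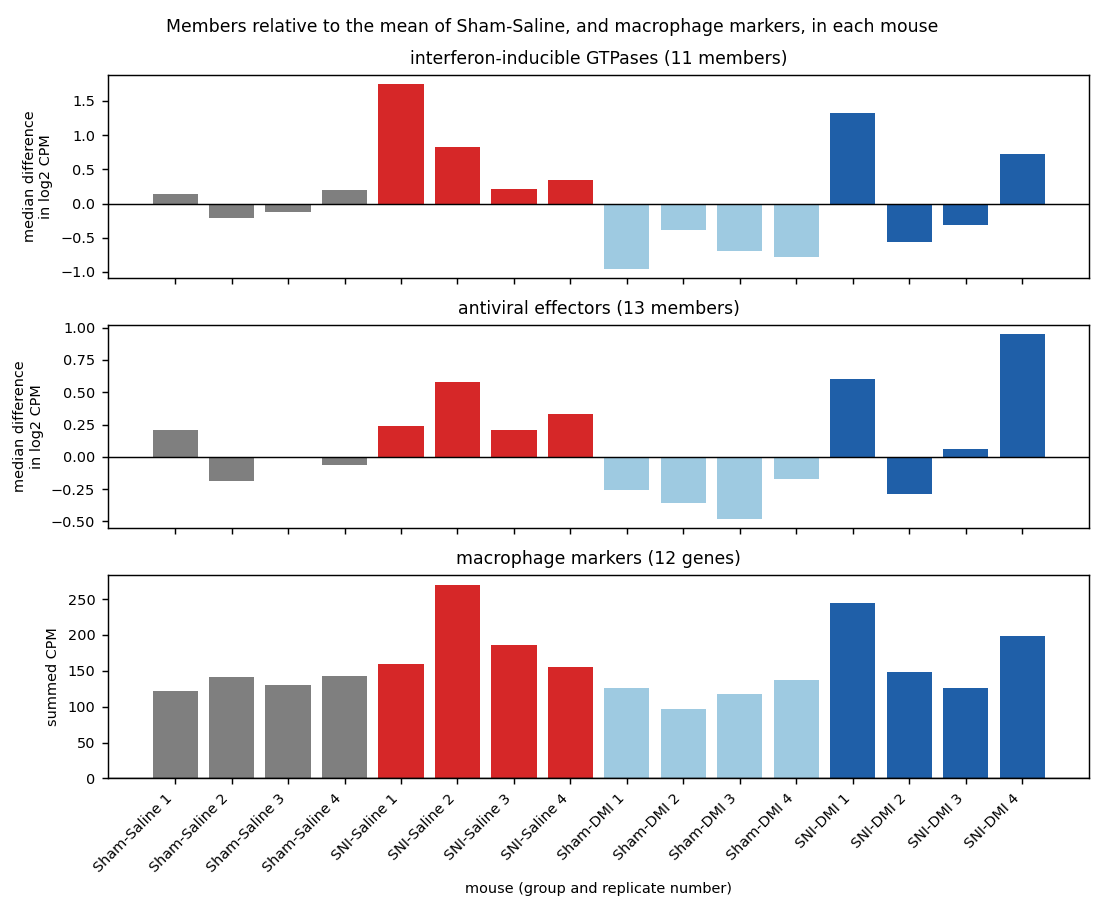
Median difference of the 11 GTPases and of the 13 antiviral effectors from the Sham-Saline mean (log2 CPM), and summed CPM of 12 macrophage markers, in each of the 16 mice. The GTPases stood at 1.75 in SNI-Saline replicate 1 and at 1.32 in SNI-DMI replicate 1, the antiviral effectors at 0.95 in SNI-DMI replicate 4, and the macrophage markers at 270 CPM in SNI-Saline replicate 2 and 244 CPM in SNI-DMI replicate 1.

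Macrophage markers moved with the injury as well. Of 12 markers 7 rose in SNI-Saline versus Sham-Saline and none fell, with a median change of 0.665, and their summed level was 122 to 143 CPM in Sham-Saline against 156 to 270 CPM in SNI-Saline. Under DMI it was 97.2 to 137 CPM in sham mice and 126 to 244 CPM in SNI mice. None of the markers was near 0, the lowest value in any library being 2.37 CPM. Within SNI-Saline the sum was 160 CPM in replicate 1, in which the GTPases were highest, and 270 CPM in replicate 2, in which they were second. Within SNI-DMI the sums of replicates 1 to 4 were 244, 148, 126 and 199 CPM. The GTPase medians of these mice were 1.32, -0.56, -0.32 and 0.73 relative to the Sham-Saline mean. Markers of T and NK cells were low throughout, with sums of 4.5 to 5.69 CPM in Sham-Saline against 5.28 to 9.01 CPM in SNI-Saline, and under DMI of 3.58 to 4.30 CPM in sham mice against 4.54 to 7.09 CPM in SNI mice. Of the 10 tested T and NK cell markers none was called after injury in edgeR under either treatment. Their median change was 0.44 under saline, with 8 above 0, and 0.637 under DMI, with 10 above 0. Of the macrophage markers none was called after injury under DMI either, with a median of 0.631 and 11 of 12 above 0. The part of these cells in the changes of the members was not tested.

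In sham-operated mice DMI was given without nerve injury, and the comparison of Sham-DMI with Sham-Saline asked what the drug did there. Interferon-stimulated genes were mostly lower with DMI. Of the 46 members 13 fell and 1 rose (30.4% in either direction), where 23.4% of all tested genes were called, 11.9% lower and 11.6% higher. The median of the members was -0.435 (all genes -0.021), and 42 of 46 were below 0. By the DEG cut-offs 14 were lower (30.4%, all genes 7.57%) and none higher (all genes 3.93%). In 23 members (50%) every Sham-DMI mouse lay below every Sham-Saline mouse, which was so for 8.51% of all genes, and in 1 every mouse lay above (2.17%, all genes 8.62%). All of it lies between the blocks of library numbers of the DMI and the saline mice.

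Of the 4 sensors 2 fell, and of the 13 effectors 4. Ifih1 was at 6.11, 7.69, 5.94 and 7.28 CPM in Sham-DMI, below all Sham-Saline mice (10.8 ± 1.45 CPM, SD, n = 4), and fell by 0.68 in log2 CPM (SE 0.161, adjusted p = 0.00942). Eif2ak2, the kinase PKR that stops translation on double-stranded RNA, was at 48.5, 42.5, 47.5 and 46.2 CPM in Sham-Saline and at 36.1, 40.9, 37.4 and 35 CPM in Sham-DMI, a smaller drop without overlap (-0.31, SE 0.0704, adjusted p = 0.00822). Samd9l was at 11, 13.4, 14.8 and 15.4 CPM in Sham-DMI against 21 ± 1.49 CPM in Sham-Saline (-0.63, SE 0.141, adjusted p = 0.00743). Rsad2 was at 5.87, 6.81, 5.24 and 4.43 CPM against 9.44 ± 1.52 CPM (-0.75, SE 0.194, adjusted p = 0.0143). In these 4 genes no Sham-DMI mouse reached the lowest Sham-Saline mouse. Mx1 lay at 0.905, 0.974, 0.824 and 0.536 CPM (-0.96, SE 0.375, adjusted p = 0.0911), also without overlap, and the remaining called effector was Ifit2 (-0.25, SE 0.0755, adjusted p = 0.0320). Ifit2 was at -0.12 without the trends on GC content and exon length (adjusted p = 0.304 in edgeR, with 0.0218 to 0.304 over the 7 other settings) and at -0.16 without Sham-Saline replicate 1 (adjusted p = 0.149).

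The GTPases had the lowest median of the role groups, -0.681, with all 11 below 0 and 3 called. Gbp6 was at 0.239, 0.535, 0.450 and 0.568 CPM in Sham-DMI, less than in any Sham-Saline mouse (-1.52, SE 0.524, adjusted p = 0.0550). Gbp7 was at 8.44, 12.8, 10.5 and 9.30 CPM (-0.68, SE 0.218, adjusted p = 0.0407), and Gbp9 fell by 1.15 (SE 0.301, adjusted p = 0.0155), both without overlap. Gbp2, at 11.8, 11.5, 10.1 and 9.44 CPM, lay below all Sham-Saline mice, but its change did not pass in this fit (-0.61, SE 0.564, adjusted p = 0.501). The fit uses 1 spread per gene over all 4 groups, and that of Gbp2 includes the 69.2 CPM (SD) of SNI-Saline.

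In the ISG15 and ADP-ribosylation system 4 of 7 fell. They were the ligases Herc6 (-0.53, SE 0.166, adjusted p = 0.0373), Dtx3l (-0.41, SE 0.115, adjusted p = 0.0212) and Trim30a (-0.63, SE 0.240, adjusted p = 0.0814) and the ADP-ribosyltransferase Parp14 (-0.47, SE 0.140, adjusted p = 0.0271). Without the trends on GC content and exon length Herc6 was at -0.23 (adjusted p = 0.393 in edgeR, with 0.0133 to 0.393 over the 7 other settings), and without Sham-Saline replicate 1 at -0.39 (adjusted p = 0.139). Isg15 was at 5.57, 4.34, 5.54 and 5.45 CPM, just under the lowest Sham-Saline mouse at 5.58 CPM, and did not pass (-0.20, SE 0.259, adjusted p = 0.651). No transcription factor was called. Irf7 was at 5.89, 5.45, 3.70 and 4.71 CPM (-0.55, SE 0.288, adjusted p = 0.207), Irf1 at 20.9, 19.8, 18.8 and 20.7 CPM (-0.0022, SE 0.226, adjusted p = 0.996), Stat2 at 90.4, 93.9, 85.2 and 79.5 CPM (-0.12, SE 0.0657, adjusted p = 0.249), and Irf9 at 24.4, 23.2, 22.2 and 21.4 CPM (-0.11, SE 0.0987, adjusted p = 0.506). For each of these the groups overlapped.

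Ifi27 went the other way. It rose to 178, 162, 155 and 159 CPM in Sham-DMI from 132 ± 6.91 CPM in Sham-Saline, with no overlap (0.31, SE 0.0562, adjusted p = 0.00283). Ifi35, a partner of Nmi, was at 18.3, 18.9, 19.6 and 18.9 CPM in Sham-Saline and at 23.2, 19, 19.4 and 18.6 CPM in Sham-DMI, where replicate 1 alone was higher (0.083, SE 0.107, adjusted p = 0.648). Bst2 and Ifitm3 had changes of -0.046 (SE 0.252, adjusted p = 0.928) and 0.025 (SE 0.151, adjusted p = 0.937).

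Of the 14 calls 7 held in all 7 other settings and without any 1 of the 16 mice, namely Ifih1, Eif2ak2, Rsad2, Samd9l, Dtx3l, Gbp9 and Ifi27. The same 7 were left when the trends on GC content and exon length were removed. The count was 27 in edgeR on the 8 libraries of the comparison and 9 without Sham-Saline replicate 1, the mouse with the high Ifi44. Markers of several other cell types were also lower with DMI, where 11.9% of all tested genes fell and 11.6% rose. Of 10 tested neutrophil markers 7 fell, with summed levels of 10.9 to 41.3 CPM in Sham-Saline and 4.05 to 19 CPM in Sham-DMI, and 3 of 5 tested B cell markers, 2 of 6 endothelial markers, 1 of 10 T and NK cell markers, 1 of 4 plasmacytoid dendritic cell markers and 1 of 12 macrophage markers fell. The medians of these 5 lists were -1.281, -0.322, -0.824, -0.489 and -0.142 in that order. Of 5 satellite glia markers 2 rose and 1 fell, of 8 sensory neuron markers 1 rose, and no Schwann cell or fibroblast marker was called. Markers of injured neurons were higher, with 5 of 7 called. The part of all these cells in the changes of the members was not tested.

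**Figure D5:**
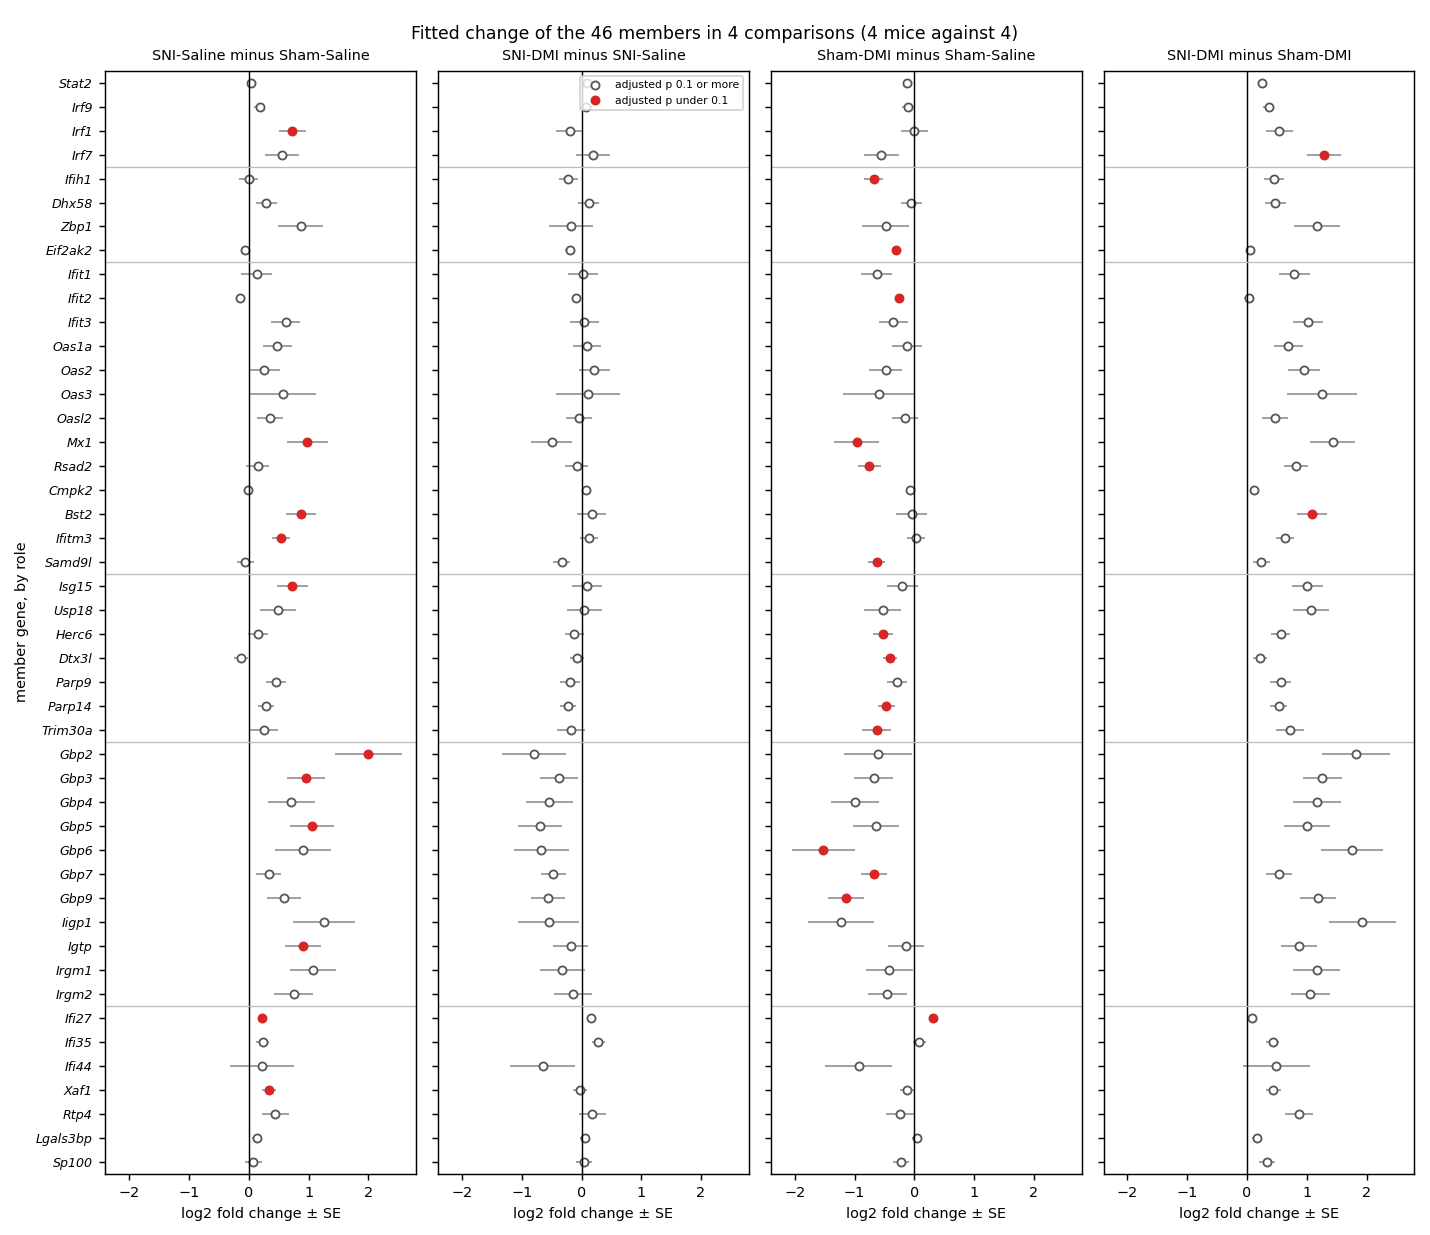
Fitted log2 fold change with its standard error (bars) for each of the 46 members, by role, in the 4 comparisons of 4 mice against 4, with filled red points for an adjusted p under 0.1. Points lie mostly right of 0 for injury (medians 0.402 under saline and 0.702 under DMI), left of 0 for DMI in sham mice (-0.435) and on either side for DMI in SNI mice (-0.086).

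The comparison of SNI-DMI with SNI-Saline asked what DMI did after injury. No member was called in edgeR, where 2.93% of all tested genes were, 1.32% higher and 1.61% lower. The number at a nominal p under 0.05 was 5 of 46, against 18.5% of all genes, DESeq2 on all 16 libraries called 2 (Ifi27 higher and Eif2ak2 lower), and edgeR on the 8 libraries of the comparison called 1 (Ifi27). The median was -0.086 (all genes -0.005), with 19 members above 0 and 27 below. By the DEG cut-offs 2 were lower, Samd9l and Gbp7 (4.35%, all genes 3.8%), and none higher (all genes 1.93%). The count was 0 without Sham-Saline replicate 3 or Sham-DMI replicate 3, 4 without SNI-Saline replicate 4, and 14 without SNI-DMI replicate 1. The direction turned without 3 mice, with 2 members higher and none lower without SNI-DMI replicate 2, and 1 higher and none lower without SNI-DMI replicate 3 or SNI-Saline replicate 1. The median was above 0 without SNI-Saline replicate 1 (0.040), SNI-DMI replicate 2 (0.070) or SNI-DMI replicate 3 (0.007). Every SNI-DMI mouse lay above every SNI-Saline mouse in 1 member (2.17%, all genes 7.33%) and below in 1 (2.17%, all genes 5.97%).

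These 2 members were Ifi27 and Eif2ak2. Ifi27 was at 163, 163, 142 and 150 CPM in SNI-Saline and at 174, 167, 178 and 171 CPM in SNI-DMI (0.16, SE 0.0561, adjusted p = 0.145). It was the only one of the 46 members in which all SNI-DMI mice lay above all SNI-Saline mice. Eif2ak2 was at 42.3, 44.4, 48.6 and 42.1 CPM against 41.5, 34.1, 37.9 and 41.4 CPM (-0.20, SE 0.0703, adjusted p = 0.152). All its SNI-DMI mice lay below the SNI-Saline mice, with 41.5 CPM as the highest against 42.1 CPM as the lowest. Ifi35 was at 24.5, 24.6, 18.6 and 21.2 CPM against 28.5, 22.6, 24.4 and 32.2 CPM (0.28, SE 0.106, adjusted p = 0.176). Samd9l was at 18.3, 10.9, 15 and 20 CPM in SNI-DMI (-0.33, SE 0.140, adjusted p = 0.224). Gbp7 was at 22.5, 8.87, 11.7 and 16.4 CPM (-0.47, SE 0.215, adjusted p = 0.249). In these last 3 genes the groups overlapped.

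All 11 GTPases had negative values, with a median of -0.535, none of which passed. SNI-Saline replicate 1 was the highest of all 16 mice in each of the 11. Relative to the Sham-Saline mean, the GTPase median of the single mice was 1.75, 0.82, 0.21 and 0.35 in SNI-Saline. In SNI-DMI it was 1.32, -0.56, -0.32 and 0.73, so that the groups overlapped. Gbp2 was at 83.4, 14.9, 16.1 and 37.7 CPM there (-0.79 against SNI-Saline, SE 0.533, adjusted p = 0.446), so that replicates 2 and 3 lay within the 13.6 to 19.8 CPM of Sham-Saline. Isg15 was at 13, 5.24, 6.96 and 16.9 CPM, Bst2 at 32.4, 16.5, 21.3 and 39 CPM, and Irf7 at 15, 6.65, 9.38 and 17.4 CPM. Replicates 1 and 4 were the high mice in each. The changes from SNI-Saline were 0.086 (SE 0.251) for Isg15, 0.17 (SE 0.245) for Bst2 and 0.19 (SE 0.278) for Irf7, each smaller than its error.

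The test of the difference between the DMI effect in SNI mice and that in sham mice called no member and no other gene (0.0% of all genes). At a nominal p under 0.05 were 2 members, Stat2 and Rsad2, against 7.92% of all genes, and none was called in DESeq2, in any of the other settings or without any 1 mouse. The median of the difference was 0.267 (all genes 0.006), with 41 of 46 above 0. Past the DEG cut-offs was 1 member, Rsad2, higher (all genes 2.24% higher and 1.22% lower). That count was 12 without SNI-DMI replicate 2 and 0 without Sham-Saline replicate 1 or SNI-DMI replicate 1 or 4. Rsad2 had the smallest adjusted p, with a difference of 0.67 (SE 0.270, adjusted p = 0.619). The DMI effects in SNI and in sham mice are therefore not shown to differ in any member.

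Among DMI-treated mice, SNI-DMI versus Sham-DMI, all 46 members had a positive change, with a median of 0.702 (all genes 0.001). At an adjusted p under 0.1 there were 2 calls, both higher (4.35%), where 0.402% of all genes were called, 0.374% higher and 0.0281% lower. By the DEG cut-offs 37 were higher (80.4%, all genes 4.07%) and none lower (all genes 1.34%). In 10 (21.7%, all genes 2.89%) every SNI-DMI mouse was above every Sham-DMI mouse, and in none were all below (all genes 2.14%). Irf7 rose by 1.29 (SE 0.288, adjusted p = 0.0841) and Bst2 by 1.09 (SE 0.251, adjusted p = 0.0963), both without overlap. Sham-DMI had 15.3, 10.2, 12 and 13.7 CPM of Bst2. The next smallest p-values were those of Rsad2 (0.82, SE 0.194, adjusted p = 0.108), Ifitm3 (0.64, SE 0.151, adjusted p = 0.109) and Ifit3 (1.02, SE 0.244, adjusted p = 0.118). Ifitm3 was at 35.7, 29.9, 30.1 and 35.3 CPM in Sham-DMI and 58.7, 36.2, 40.2 and 68.7 CPM in SNI-DMI, without overlap. Ifit3 was at 13.2, 8.84, 10.4 and 13.2 CPM against 30.5, 13.1, 15.9 and 32.9 CPM, where replicate 2 reached into the sham range.

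The number of calls in that comparison changed with the setting and with single mice. It was 1 with DESeq2 size factors, 27 without the filter on low counts, 21 in DESeq2 and 0 in edgeR on the 8 libraries alone. Without single mice it was 26 (SNI-DMI replicate 2), 16 (SNI-DMI replicate 3), 13 (Sham-DMI replicate 1), 5 (SNI-Saline replicate 1), 1 (SNI-Saline replicate 4) and 0 (SNI-DMI replicate 1 or 4, Sham-DMI replicate 2, 3 or 4, Sham-Saline replicate 2, 3 or 4). The comparison shares its Sham-DMI mice with the DMI comparison in sham mice, in which most members were lower.

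The members with and without an ISRE match can be set side by side. In SNI-Saline versus Sham-Saline the 19 members with a match had a median change of 0.57, and 7 of them rose, while the 14 matched members without one had a median of 0.16, and 2 rose. Of all tested genes 5.85% rose there. The split follows the role groups as well, since all 7 matched GTPases had a match and none of the 5 genes of the other group. In Sham-DMI versus Sham-Saline the medians were -0.45 and -0.19. There 5 and 4 members were called, where 23.4% of all tested genes were. In SNI-DMI versus SNI-Saline the medians were -0.14 and -0.03, and no member was called (all genes 2.93%). In SNI-DMI versus Sham-DMI they were 0.87 and 0.39. The 6 genes with a printed promoter were chosen with results of these data known, so their calls are no evidence on the motif. Of them Isg15, Bst2, Gbp2, Igtp and Irf1 were called higher after injury under saline in edgeR, Irf1 without an ISRE match. Ifit1, with ISRE matches, was not called (0.13, SE 0.255, adjusted p = 0.807).

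The interferons themselves were hardly seen. Of 21 ligand genes 12 had no read pair in any of the 16 libraries, and 8 others had 14 read pairs together. None of the 21 passed the filter. A count of 0 in a library allows up to 0.0728 CPM in the shallowest and 0.0406 CPM in the deepest mouse, for counting error only. Ifng, the gene of interferon gamma, had 31 read pairs in all. The mice had 0, 0, 1 and 2 in Sham-Saline, 10, 4, 3 and 0 in SNI-Saline, 0, 0, 0 and 1 in Sham-DMI, and 7, 1, 0 and 2 in SNI-DMI. The 10 and the 7 were in the replicates 1 of both SNI groups, which also had the highest GTPases of their groups. Such counts carry no test here.

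Of 54 other genes of the pathway, ligands included, 33 were tested. Of these, 2 rose and 1 fell after injury under saline, a smaller share than the 12% of all tested genes, with a median of 0.057, and 0 to 5 were called without 1 mouse. Ifnar1, a chain of the type I receptor, was at 83.6, 77.3, 81.2 and 81.8 CPM in Sham-Saline and at 68.9, 70.3, 76.6 and 73.1 CPM in SNI-Saline (-0.16, SE 0.0517, adjusted p = 0.0669). Ifngr1, the binding chain of the interferon gamma receptor, was at 37.5, 36.4, 37.2 and 35.1 CPM against 42.3, 40.4, 39.4 and 41 CPM (0.16, SE 0.0534, adjusted p = 0.0843). Neither pair of groups overlapped. Socs3, a feedback inhibitor of cytokine receptors, was at 9.03, 11.2, 11.9 and 9.69 CPM against 12.8, 14, 13.9 and 12.6 CPM (0.35, SE 0.110, adjusted p = 0.0684), again without overlap.

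With DMI in sham mice 2 of the 33 rose and 2 fell, a smaller share than the 23.4% of all tested genes, and 1 to 6 were called without 1 mouse. Irf3, the factor that switches on the first interferon genes, was at 31.5, 31.8, 29.6 and 30 CPM in Sham-Saline and at 34.1, 34, 34.8 and 33.6 CPM in Sham-DMI (0.15, SE 0.0486, adjusted p = 0.0408), and Ifngr2 was 0.16 higher (SE 0.0608, adjusted p = 0.0860). The receptor kinase Jak2 fell by 0.19 (SE 0.0606, adjusted p = 0.0380) and Ifnar1 by 0.14 (SE 0.0517, adjusted p = 0.0647). In SNI mice 1 of the 33 was called higher with DMI and 1 lower, where 2.93% of all tested genes were called. Without 1 mouse 0 to 3 were called. Irf3 was at 35.3, 32.7, 33.1 and 31.1 CPM in SNI-Saline and at 38.6, 37.3, 36.7 and 36 CPM in SNI-DMI (0.17, SE 0.0485, adjusted p = 0.0985). The inflammasome sensor Aim2 fell from 1.12, 2.20, 1.20 and 1.33 CPM to 0.976, 0.858, 0.627 and 0.814 CPM (-0.84, SE 0.207, adjusted p = 0.0735), and in both genes the groups did not overlap. In SNI-DMI versus Sham-DMI edgeR called none of the 33 (all genes 0.402%). At a nominal p under 0.05 were 10 (all genes 12.1%), and up to 2 were called without 1 mouse.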

How the data were processed

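RNA of L3-6 DRGs was sequenced as stranded mRNA libraries, 1 mouse per library and 16 in all. The authors deposited whole-number counts of read pairs per Ensembl gene for each library, made with HISAT2 and HTSeq on mm10 per the labels, whose versions and strand setting are not given in the sources used here. Between 18.83% and 20.44% of the read pairs were assigned to no gene and stayed out. Samples were grouped by their labels for surgery and agent. Positions and exon lengths came from GENCODE M21, which held 52403 of the 52636 genes.

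Genes were filtered with filterByExpr, scaled by TMM and tested with the quasi-likelihood test of edgeR 4.0.16 (R 4.3.3) on all 16 libraries with 1 coefficient per group. All tests are two-sided. p-values were adjusted by Benjamini-Hochberg over 21371 genes and called under 0.1. SE is the absolute log2 fold change divided by the root of the F statistic, and CPM are TMM-scaled. The code was tested on simulated data. Alternatives were DESeq2 1.42.0, its size factors, no filter, the 8 libraries of a comparison alone, a replicate block, curves on GC content and on exon length subtracted (mgcv 1.9.3), and leaving out each library.

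The members, gene lists and tests were chosen with earlier results of these data known. Members were named by a rule: the 4 transcription factors, the 5 smallest p-values of each comparison, the largest injury change of each role group, and the 3 highest and 3 lowest levels. Other members were named after their values were seen. Counting error is part of the spread between mice and is widest for the members with the fewest reads, such as Oas3 and Gbp6, and a count of 0 allows 3 read pairs.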

Additional observations from a re-analysis of the deposited data

Results flagged for a closer look

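In 9 of 92 groups of 4 mice (23 named members in 4 groups), 1 mouse stood further from the others than Dixon's 95% limit for 4 values allows, where chance flags about 4.6. SNI-Saline replicate 1 did so in 4 members. It was above the other 3 mice in Gbp2 (169 CPM against 24.4 to 40.7), in Gbp6 (5.6 CPM against 1.12 to 1.74) and in Ifit3 (32.0 CPM against 18.1 to 20), and below them in Oas3 (0.272 CPM against 0.489 to 0.514).

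Ifi44 had an outlying mouse in both saline groups. Sham-Saline replicate 1 was at 6.33 CPM against 1.04 to 1.64, and SNI-Saline replicate 2 was at 5.90 CPM against 1.78 to 2.40. The remaining mice were Sham-Saline replicate 3 in Samd9l (23.2 CPM against 20.1 to 20.6), Sham-DMI replicate 2 in Isg15 (4.34 CPM against 5.45 to 5.57) and Sham-DMI replicate 1 in Ifi35 (23.2 CPM against 18.6 to 19.4).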

How the results depend on the processing

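The sign was followed for the medians, the called members and the 5 smallest p-values of each comparison of groups. For injury under saline the 4 transcription factors and the largest change of each role group were followed too. Among these, the sign differed from the reported one in 1 case, the median for DMI in SNI mice (-0.086). That median was 0.040, 0.070 and 0.007 without SNI-Saline replicate 1, SNI-DMI replicate 2 and SNI-DMI replicate 3. Other changes printed above, some of them near 0, were not followed. The number of members called after injury under saline (11) was 19 in edgeR on the 8 libraries alone, 1 with the trends on GC content and exon length removed, and 5 with these removed and the replicate block. For DMI in SNI mice (0) it was 2 in DESeq2 and 1 on the 8 libraries, and past the DEG cut-offs (2) it was 1 in DESeq2, 0 on the 8 libraries, 4 with the block, 0 without the trends and 1 with both. For DMI in sham mice (14) it was 27 on the 8 libraries, 7 without the trends and 9 with both, and past the DEG cut-offs (14) 25 on the 8 libraries and 9 without the trends. For injury under DMI (2) it was 1 with DESeq2 size factors, 27 without the filter, 21 in DESeq2, 0 on the 8 libraries, 4 with the block, 7 without the trends and 5 with both. For the difference of the DMI effects, the number past the DEG cut-offs (1) was 6 without the filter and 3 in DESeq2. The causes were not tested.

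Without 1 mouse, the members called ranged from 0 to 16 (injury under saline), 0 to 1 (DMI in SNI mice), 9 to 17 (DMI in sham mice), 0 to 26 (injury under DMI) and 0 to 0 (difference). The medians ranged from 0.309 to 0.529, -0.236 to 0.070, -0.483 to -0.323, 0.509 to 0.906 and 0.124 to 0.423, and the numbers past the DEG cut-offs from 7 to 22, 0 to 14, 11 to 18, 26 to 38 and 0 to 12, in the same order. The median for DMI in sham mice was -0.323 without Sham-Saline replicate 1.

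Replicate numbers gave no pairing of the mice across all groups. Deviations of same-numbered mice from their group means correlated between -0.233 and 0.353 (mean 0.037), and 6 of 16 mice correlated best with their own number. The mean of the other pairs (-0.012) is largely set by the centring on group means and is no separate reference. All 4 correlations were positive between SNI-Saline and Sham-DMI (0.071 to 0.202), and the mean was 0.171 between SNI-Saline and SNI-DMI. In the other pairs of groups the mean lay between -0.072 and 0.047. With the replicate block, Xaf1 after injury under saline had an adjusted p of 0.106 and Bst2 after injury under DMI of 0.120 in edgeR.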
